A study of Mus musculus with 7 samples.

Results

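The genes described here are the long noncoding RNA (lncRNA) genes detected in cultured mouse neural stem cells (NSCs). A gene was a member if its Gencode type on GRCm38 was lincRNA, lncRNA, antisense, processed transcript, sense intronic, sense overlapping or bidirectional promoter lncRNA, and its counts summed over the 7 samples reached 100. Symbols that start with Snhg or Mir were left out, as were Gas5, H19, Meg3, Rian, Mirg, Airn, Kcnq1ot1, Nespas and Peg13, so that 21 genes past the minimum were not members. The rule selected 289 of 55335 annotated genes. The files hold 9914 genes of these types, of which 5680 had at least 1 count. Just outside the minimum were AV099323 with 98 counts and Gm29170 and Gm43566 with 99 each. Just inside were AV356131 with 101 counts and 5930403N24Rik and Gm42067 with 102 each. The members were thus selected on their summed counts, so their levels are a description and were not tested.

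All samples were FVB/N NSCs grown with EGF and basic FGF. The 4 wild-type (WT) samples carried intact Smchd1, which encodes a chromatin repressor of the SMC family, and the 3 Smchd1-null samples carried the Smchd1MommeD1 mutation. Polyadenylated RNA was turned into direct cDNA and read on nanopore flow cells in 2 batches with different library kits. Batch 1 alone held the second WT replicate and the first pair of Smchd1-null replicates, batch 2 alone held the last pair of WT replicates and the remaining Smchd1-null one, and reads of WT replicate 1 came from both. The labels give neither age nor sex, and do not say whether replicates were separate animals, so p-values measure the spread between these samples.

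Libraries held 2.74 to 7.74 M counts. Smchd1 itself had 55.7 to 74.7 CPM (counts per M counts, after TMM scaling) in the WT samples and 12.8 to 18.4 CPM in the Smchd1-null samples. NSC markers such as Fabp7, Vim, Sox2 and Nes were abundant, with a summed level of 8971 to 13772 CPM over 10 markers in WT and 8548 to 10091 CPM in Smchd1-null. The 8 microglia and blood markers together stayed at or below 2.23 CPM in every sample, with C1qa, Hba-a1 and Hbb-bs at 0 counts. WT replicate 4 stood apart in glial markers. It had 96.2 CPM of Mbp, a myelin gene, where no other sample exceeded 4.44 CPM.

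lncRNAs are transcribed and processed much like messenger RNAs but are not known to be translated into proteins. Some act in the nucleus as scaffolds, such as Malat1 in nuclear speckles and Neat1 in paraspeckles. Others bind proteins or microRNAs, or matter mainly through what lies in their introns, such as small nucleolar RNAs (snoRNAs) and microRNAs. Many start back to back with a protein-coding gene and share its promoter region. SMCHD1 is best known for keeping the inactive X chromosome, imprinted clusters and protocadherin clusters silent.

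Gencode placed 129 members among lincRNA genes, 78 among processed transcripts, 53 among antisense genes and 22 among bidirectional promoter lncRNAs, with 5 sense intronic and 2 sense overlapping genes. RefSeq (GRCm38.p6) described part of them otherwise. Of the 221 members that matched a RefSeq gene by symbol or synonym at an overlapping position, 196 were noncoding there, 22 protein-coding and 3 pseudogenes. The protein-coding ones include Cct6a, a chaperonin subunit, Tmem134 and Ndufb1-ps, which RefSeq lists as Ndufb1, a subunit of respiratory complex I. Separately, 19 members, some of them among these, had at least 50% of their longest transcript covered by a transcript of another gene at 90% identity or more. With either property set aside, 247 members remained.

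The clearest case of a close copy was Gm10076 (ENSMUSG00000060143.7), a single-exon gene of 384 bases (chr14:105681828-105682211, plus strand, GRCm38). RefSeq lists it as a pseudogene. It holds the whole coding sequence of Rpl41, a protein of the large ribosomal subunit whose own gene lies elsewhere (chr10:128548387-128548960, minus strand). The 78 bases from start to stop codon, from the Gencode transcripts, are shown for both genes because they had 0 differences, so that a read of this stretch cannot be assigned to either by its sequence.
Rpl41: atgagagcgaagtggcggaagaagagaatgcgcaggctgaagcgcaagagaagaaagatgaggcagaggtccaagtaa
Gm10076: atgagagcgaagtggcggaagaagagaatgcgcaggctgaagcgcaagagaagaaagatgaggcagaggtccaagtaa

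Members with many counts also included hosts of microRNAs. Gm3764 and C130071C03Rik each hold a gene for miR-9, a microRNA of neural progenitors, and 3110039I08Rik, which RefSeq names Mir100hg, holds the genes of miR-100, miR-125b and a let-7 family member. Dleu2 holds those of miR-15a and miR-16, which share a seed. Within 3110039I08Rik the mature forms lie at chr9:41531437-41531458 (miR-100-5p), chr9:41536777-41536797 (let-7a-2-3p) and chr9:41581940-41581961 (miR-125b-5p). The sequences are shown from RefSeq (GRCm38.p6), with the seed (bases 2 to 8) in capitals. The let-7a-2 form shown is the 3p strand, where the others are 5p strands, so its capitals mark the seed of the 3p strand only.
mmu-miR-9-5p: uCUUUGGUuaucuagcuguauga
mmu-miR-100-5p: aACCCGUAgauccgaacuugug
mmu-miR-125b-5p: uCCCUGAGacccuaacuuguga
mmu-let-7a-2-3p: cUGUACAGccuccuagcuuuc
mmu-miR-15a-5p: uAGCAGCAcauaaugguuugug
mmu-miR-16-5p: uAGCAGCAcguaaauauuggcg

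A pair of widely expressed members is known for what their sequence binds. 1700020I14Rik is the mouse Oip5os1 gene (Cyrano), known for a site that pairs almost fully with miR-7. In its 8300-base transcript, a 30-base window that ends opposite the first base of miR-7a held both the 7 bases complementary to the seed and a second stretch of 13 complementary bases, in capitals in the window and with the seed in capitals in the microRNA. The seed match alone was present in 19.4% of the 289 longest transcripts, searched on the transcript strand only.
Oip5os1, bases 2930 to 2959 of the transcript: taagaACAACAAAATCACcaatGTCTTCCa
mmu-miR-7a-5p: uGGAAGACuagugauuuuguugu

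2900097C17Rik is Norad, an RNA known to bind PUMILIO proteins through repeats of TGTANATA. This motif, searched on the transcript strand with overlaps allowed, occurred 11 times in the 4915 bases of Norad. The next highest members, Rab10os, Neat1 and Sox2ot, held 4 each, and 26.0% of the 289 longest transcripts held at least 1. A stretch of Norad with 2 of the motifs in capitals is shown.
Norad, bases 1482 to 1631 of the transcript: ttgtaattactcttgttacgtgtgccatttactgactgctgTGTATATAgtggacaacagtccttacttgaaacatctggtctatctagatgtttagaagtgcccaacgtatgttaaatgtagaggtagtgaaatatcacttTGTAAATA

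Bc1 was the shortest member. It is a small cytoplasmic RNA of rodent neurons, made by RNA polymerase III from an ancient copy of a transfer RNA gene, and its adenine-rich middle is encoded in the genome. Of the 30 bases in capitals, 28 are A. It is encoded at chr7:144914470-144914637, plus strand. A transcript of Akap5 also covers 65.5% of it at 90% identity or more, so its reads are uncertain to that extent.
Bc1: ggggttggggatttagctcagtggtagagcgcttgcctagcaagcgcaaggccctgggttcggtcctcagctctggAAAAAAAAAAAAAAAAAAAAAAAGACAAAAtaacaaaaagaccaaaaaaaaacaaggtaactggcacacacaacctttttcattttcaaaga

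As transcripts, the members were shorter and simpler than the 10585 protein-coding genes with the same count minimum. The median of the longest annotated transcript was 2040 bases against 3581, with a GC content of 46.9% against 49.3%. The longest open reading frame had a median of 79 codons in members and 416 in protein-coding genes. It reached 100 codons in 29.8% of members, which include the RefSeq coding genes, and in 25.1% of the 247 others. Single-exon genes made up 21.5% of members and 2.80% of protein-coding genes. The polyadenylation signal AATAAA was within the last 50 bases of 52.6% of members and 60.6% of protein-coding genes.

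RefSeq promoters (250 bases before to 50 after the start) were at hand for 180 members and 8520 of the protein-coding genes. Median GC was 58.7% in members and 62.0% in protein-coding genes, and the observed over expected ratio of CpG was 0.694 and 0.798. TATAAA on either strand was in 12.2% of member promoters, 6.08% of protein-coding promoters and 13.6% of all 32851 RefSeq promoters. CCAAT was in 43.3%, 39.7% and 37.4%, and GGGCGG in 51.7%, 68.6% and 35.7%. The promoter of Malat1 (chr19:5802623-5802922, minus strand, GRCm38.p6) is shown since Malat1 is among the 2 members that passed the genotype test. It held none of these 3 motifs, and therefore no capitals.
Malat1 promoter: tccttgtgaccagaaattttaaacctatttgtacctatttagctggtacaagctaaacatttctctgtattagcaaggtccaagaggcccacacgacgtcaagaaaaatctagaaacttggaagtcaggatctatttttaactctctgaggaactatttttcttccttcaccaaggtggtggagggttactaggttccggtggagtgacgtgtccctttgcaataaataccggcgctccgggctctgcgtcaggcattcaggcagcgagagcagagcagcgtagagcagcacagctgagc

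By position, 105 members were divergent, with the gene starts of member and protein-coding partner at most 1000 bases apart on opposite strands. These could also overlap the partner, as Gm4675 did with Sox21, and were then counted as divergent only. Among the rest, 39 lay antisense over a protein-coding gene, 18 overlapped one on the same strand, and 127 were intergenic, with a median of 12805 bases to the nearest protein-coding gene. Exons of 127 members overlapped an exon of another gene. No use of strand in the counting is stated, so reads of such a member and of its antisense partner cannot be told apart.

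WT levels were examined first, as the mean over the 4 WT samples. The median member had 6.52 CPM (SD of the 4 sample medians 0.43 CPM), against 30.6 CPM for protein-coding genes with the same minimum. Only 13 members reached 100 CPM, 87 lay between 10 and 100 CPM, and 189 were below 10 CPM. In all, 285 members had a count in each of the 7 samples. Per kb of the deposited gene length, the median WT level was 3.20 CPM per kb for members and 6.03 CPM per kb for protein-coding genes. The study found gene length only weakly associated with expression in these unfragmented reads. Values per kb therefore describe counts relative to length and do not measure abundance. The SD of log-CPM over the 4 WT samples had a median of 0.38 in members and 0.27 in those protein-coding genes. The members had lower levels and the groups were not matched on level, so these SDs do not compare variability at like counts.

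**Figure D1:**
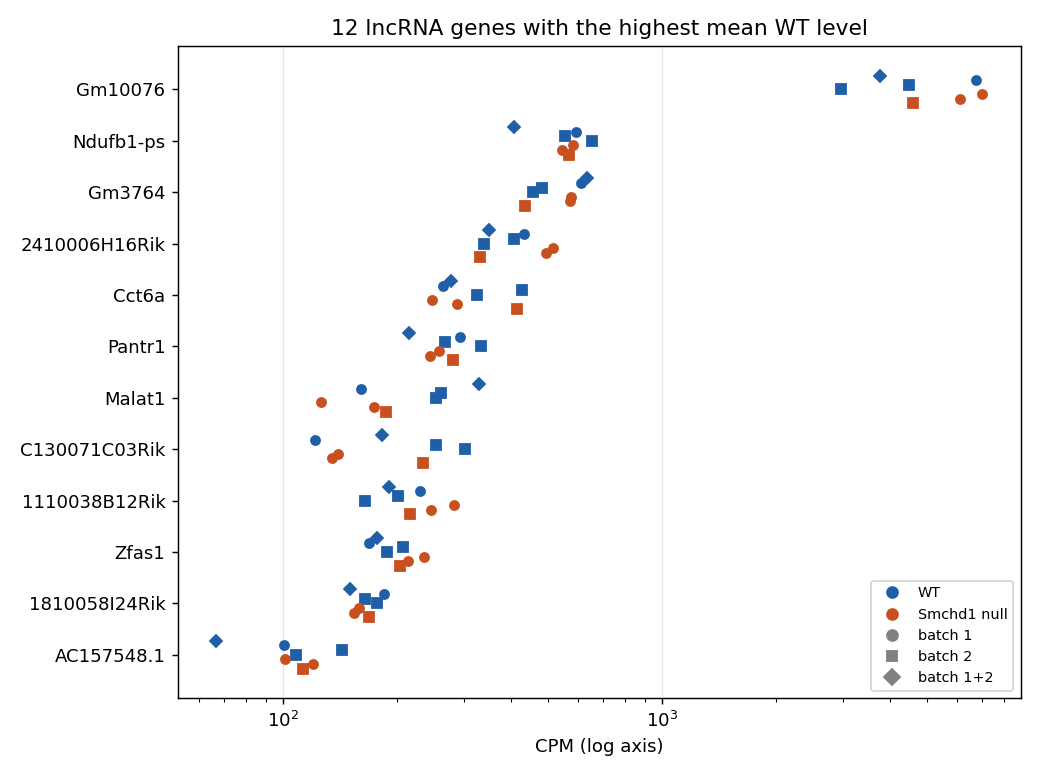
CPM of the 12 lncRNA genes with the highest mean WT level, on a log axis, with 1 symbol per sample, coloured by genotype and shaped by batch. Gm10076 lies between 2962 and 7008 CPM, and every other gene is at or below 655 CPM.

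Gm10076 was far above the others. The 4 WT samples had 3759, 6757, 4483 and 2962 CPM, in the order of their replicate numbers as everywhere below, and the 3 Smchd1-null samples had 7008, 6124 and 4589.8 CPM. The genotypes overlapped, and the 3 highest samples were the ones sequenced in batch 1 only. Rpl41 followed the same order loosely, from 972 to 1673 CPM in WT and from 1355 to 1796 CPM in Smchd1-null. The ratio of Gm10076 to Rpl41 counts stayed between 3.04 and 4.04 in the 7 samples.

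Because of its share of 43.6% of all member counts, Gm10076 also set the summed level of the class. Members took 1.04%, 1.29%, 1.09% and 0.992% of counts in WT replicates 1 to 4, and 1.31%, 1.23% and 1.10% in Smchd1-null replicates 1 to 3. The difference of 0.11 percentage points between the means was within the spread (p = 0.286, adjusted p = 0.571, exact permutation test over 35 assignments, two-sided, adjusted over 6 quantities). Without Gm10076 the shares were 0.650%, 0.625%, 0.649% and 0.697% in WT and 0.624%, 0.631% and 0.636% in Smchd1-null, and the difference turned to -0.025 percentage points (p = 0.229, exact permutation test). With Gm10076 kept, it was 0.167 without WT replicate 2, 0.162 without Smchd1-null replicate 3, 0.069 without WT replicate 4 and 0.058 without Smchd1-null replicate 1. The other 5 quantities, among them the shares of divergent and of antisense members and the number of members with a count, had adjusted p-values of 0.571 to 0.886 in the same exact permutation tests. The smallest p this design allows is 0.0286, so none of the 6 could reach 0.05 alone after adjustment.

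**Figure D2:**
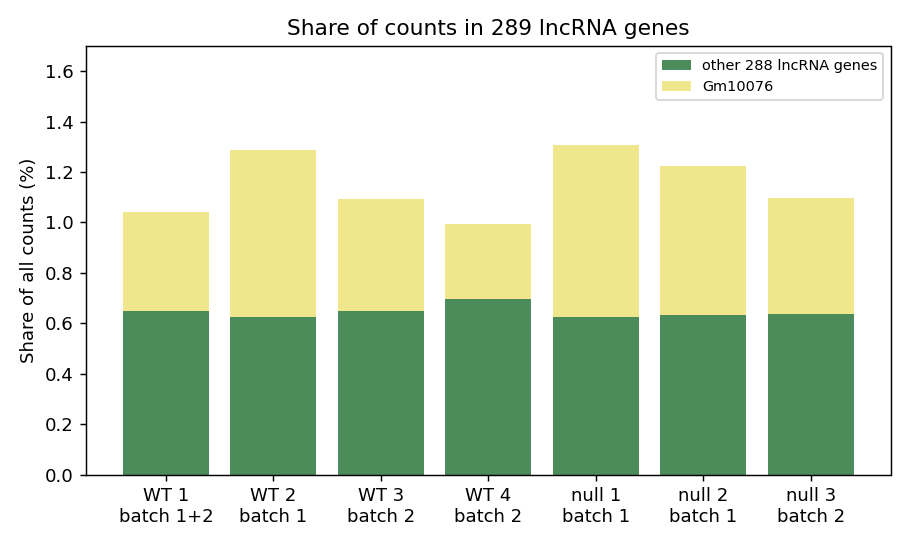
Share of all counts in the 289 lncRNA genes in each sample, in percent, split into Gm10076 and the other 288 genes. The part without Gm10076 is between 0.624% and 0.697% in all samples, and the Gm10076 part is highest in the 3 samples sequenced in batch 1 only.

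Ndufb1-ps, the RefSeq complex I gene, had 552 ± 106 CPM in WT (SD, n = 4). Gm3764, the miR-9 host, had 635, 611, 482 and 458 CPM in WT and 575, 573 and 434 CPM in Smchd1-null samples. The genotypes overlapped, and the lowest 3 values were the samples sequenced in batch 2 only. Pantr1, which starts 926 bases from the neural transcription factor gene Pou3f3 on the opposite strand, had 215, 294, 268 and 334 CPM in WT and 258, 244 and 280.3 CPM in Smchd1-null. It was the most abundant member of the list of neural lncRNAs. Its fold change was -0.04 ± 0.13 (log2, SE).

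Hosts of snoRNAs were frequent at the top. 2410006H16Rik, with the genes of Snord49a, Snord49b and Snord65 inside it, had 382 ± 44.3 CPM in WT (SD, n = 4), 1110038B12Rik with Snord52 had 197 ± 27.2 CPM, and Zfas1 with Snord12 had 185 ± 17.1 CPM. By length these were among the densest members. 2410006H16Rik had 827 ± 95.9 CPM per kb and Ndufb1-ps 479 ± 91.8 CPM per kb, next after Gm10076 at 11693 ± 4254 CPM per kb (SD, n = 4). Bc1 followed with 268 ± 197 CPM per kb, and its SD reached into the range of Ndufb1-ps and of Epb41l4aos, which had 169 ± 21.1 CPM per kb. Malat1, at 251 CPM, was 17th per kb (35.9 ± 9.93 CPM per kb), and Neat1 with its 20771 bases was 286th (0.257 ± 0.104 CPM per kb). Such ranks depend on gene length and are not ranks of abundance.

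Of the other members in the highest 12, Cct6a had 323 ± 73.6 CPM, C130071C03Rik 215 ± 79.4 CPM, 1810058I24Rik 169 ± 15.3 CPM and AC157548.1 105 ± 31.5 CPM in WT (SD, n = 4). RefSeq types 1810058I24Rik as protein-coding. Of the transcript of AC157548.1, 44.3% is covered by the tubulin gene Tuba1b at 90% identity or more.

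Some members were nearly confined to 1 library by their counts. The criterion, chosen after the values were seen, was a CPM at least 5 times that of the next sample with at least 10 counts. It selected 7 members. All of them but AI506816 reached the minimum of 100 counts only through the library in which they were high. Gm42047 had 173 CPM (1011 counts) in WT replicate 4 and 0.133 to 0.524 CPM in the other 6 samples. AI506816 had 100.1 CPM in WT replicate 4 and 6.22 to 10.7 CPM elsewhere, and 9630013A20Rik had 17.7 CPM there and at most 1.55 CPM elsewhere.

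The other 4 were high in Smchd1-null replicate 2. Gm28497 had 306 counts (40.7 CPM) in that sample and 0 counts in the other 6. 2410018L13Rik had 56.4 CPM and Gm48313 had 19.96 CPM in it, with 0 to 2 counts in every other sample. Gm26581 had 57.2 CPM in it and 1.13 to 9.52 CPM elsewhere, and its sequence is fully covered by Gm10825, which had 19.8 CPM in that sample and 0.787 to 5.84 CPM in the others. Reads of Gm26581 and Gm10825 may be exchanged between the 2 genes by the counting. Other genes also cover 64.2% of Gm42047, 87.4% of AI506816 and 66.8% of 2410018L13Rik at 90% identity or more, so that 4 of the 7 members have a close copy. Of the 7 members, Gm42047, 9630013A20Rik, Gm28497, 2410018L13Rik and Gm48313 did not pass the filter on low counts and are the 5 members outside the genotype comparison below. In a limma fit on all genes with at least 1 count, which included them, no member was called at an adjusted p under 0.25, against 0.0597% of those genes. An unadjusted p under 0.05 was reached by 16 of the 289 members and by 1914 of the 36857 genes in that fit.

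**Figure D3:**
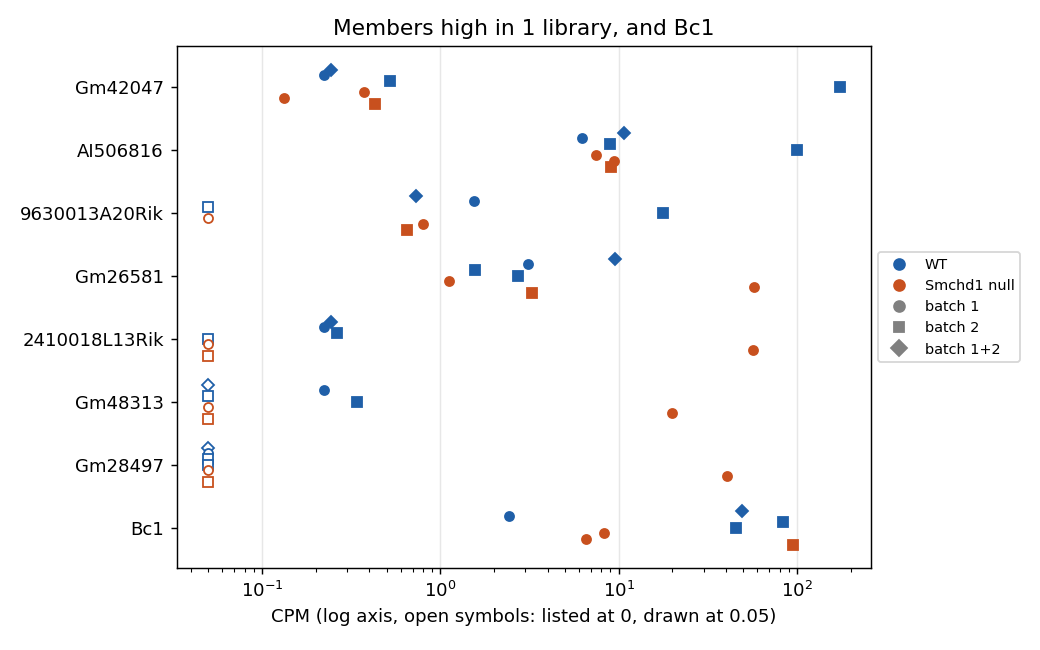
CPM of the 7 members that are high in 1 library, and of Bc1, in each sample on a log axis. The first 3 are highest in WT replicate 4 and the next 4 in Smchd1-null replicate 2, while Bc1 separates the samples by batch, from 2.44 to 8.26 CPM in batch 1 and from 45.4 to 95.2 CPM in batch 2.

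Miat, a nuclear lncRNA of neural and other tissues, leaned the same way without meeting that criterion. It had 3.17, 7.33, 1.05 and 26.4 CPM in WT and 3.75, 3.59 and 4.98 CPM in Smchd1-null samples. WT replicate 4 alone was above 7.33 CPM. That replicate was also highest in the summed astrocyte markers (113 CPM over 4 genes, with 28.6 to 37.1 CPM in the other WT samples and 31.5 to 37.9 CPM in Smchd1-null). Their part in the level of these members was not tested. In such bulk samples, fewer cells of a type and less RNA per cell cannot be told apart.

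Bc1 was ordered by batch rather than by genotype. It had 49.3, 2.44, 83.1 and 45.4 CPM in WT and 8.26, 6.52 and 95.2 CPM in Smchd1-null samples. The 3 samples of batch 1 only were all below 9 CPM, those of batch 2 only all above 45 CPM, and WT replicate 1, which holds reads of both, lay among the latter. In a limma fit of genotype and batch share, Bc1 was 3.84 ± 0.35 higher in batch 2 (log2, SE, adjusted p = 9.45e-05). With the batch share in the fit, its genotype difference moved from -1.65 ± 0.92 to 0.43 ± 0.28 (log2, SE, limma adjusted p = 0.415 and 0.751).

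That batch difference was called at an adjusted p under 0.05 for 23 members (8.10% of the 284 tested), of which 13 were higher in batch 2. Among all genes the share called was 12.4%. C130071C03Rik, the second miR-9 host, had 121 to 139.6 CPM in the 3 samples of batch 1 only and 234 to 302 CPM in those of batch 2 only, with a batch difference of 0.92 ± 0.11 (log2, SE, limma adjusted p = 0.000785). Gm3764, the other miR-9 host, went the other way, at -0.38 ± 0.10 (limma adjusted p = 0.0212). Cct6a was higher in batch 2 by 0.61 ± 0.11, and Gm10076 lower by 0.64 ± 0.13 (log2, SE, limma adjusted p = 0.00566 and 0.00898). Dancr, a lncRNA of undifferentiated progenitor cells and host of Snora26, had 42.9 to 54.0 CPM in batch 1 only and 24.0 to 31.7 CPM in batch 2 only.

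To see which lncRNA genes differed in the absence of Smchd1, the genotypes were compared with limma over 13305 genes, of which 284 were members. The voom weights included a weight per sample. Smchd1-null replicate 1 (2.03) and replicate 2 (1.83), both sequenced in batch 1 only, outweighed replicate 3 (0.674). In WT, replicate 3 (1.29) and replicate 1 (1.06) outweighed replicate 2 (0.654) and replicate 4 (0.447), the latter of batch 2 only. The fit thus leaned on Smchd1-null samples of batch 1 and on WT samples with batch 2 reads, and it held no batch term. At an adjusted p under 0.25, the threshold of the study, 2 members were called (0.704% of the 284), both lower in Smchd1-null, and 1.08% of all tested genes were called. At an adjusted p under 0.05 no member was called, against 0.0902% of all genes. At an unadjusted p under 0.05 there were 35 members (12.3%), 17 of them higher and 18 lower in Smchd1-null, against 13.9% of all genes. With edgeR's quasi-likelihood test 0 members passed either threshold, where 0.0601% of all genes were called at 0.25, and 16 members among 675 of all genes had an unadjusted p under 0.05. DESeq2 called 1 member at 0.25, where 0.241% of all genes were called, and 0 at 0.05, with 14 members among 593 of all genes at an unadjusted p under 0.05.

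Groups that did not overlap in log-CPM were found for 17 members (5.99% of those tested), 7 higher and 10 lower, and for 5.53% of all genes. The median log2 fold change was -0.04 over the members and 0.00 over all genes tested. These shares are at or near those of all genes. The counts depended on single libraries. Without WT replicate 2 the members called at 0.25 were 47 and without Smchd1-null replicate 3 they were 53, where 22.7% and 23.5% of all genes were called. Without WT replicate 1, WT replicate 3, Smchd1-null replicate 1 or Smchd1-null replicate 2 there were 0. In these 4 fits 0.0839%, 0.327%, 0.00733% and 0.0149% of all genes were called. Without WT replicate 4 there was 1, where 0.334% of all genes were called.

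**Figure D4:**
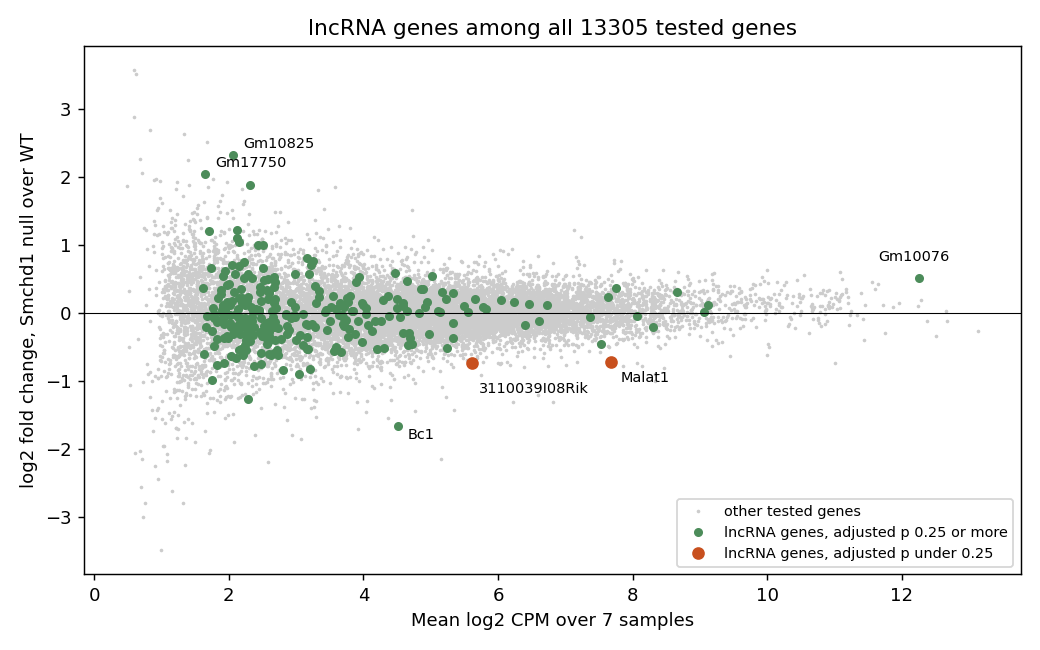
log2 fold change (Smchd1 null over WT) against mean log2 CPM over the 7 samples for all 13305 tested genes, with the 284 tested lncRNA genes in colour. The lncRNA genes spread around 0 as the other genes do, and the 2 with an adjusted p under 0.25, 3110039I08Rik and Malat1, lie below 0.

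3110039I08Rik (Mir100hg, ENSMUSG00000074415.14) had the lowest p of all members. Its gene (chr9:41327077-41716994, plus strand) has 33 exon blocks and 23898 exonic bases. It had 64.0, 48.6, 59.8 and 68.1 CPM in WT and 34.5, 35.1 and 42.0 CPM in Smchd1-null samples. All Smchd1-null values were below all WT values. The log2 fold change was -0.73 ± 0.14 (SE, limma adjusted p = 0.0963). Within batch 1 the difference of log-CPM was -0.48 (1 WT and 2 Smchd1-null samples) and within batch 2 it was -0.60 (2 WT and 1 Smchd1-null), and with the batch share in the fit it was -0.55 ± 0.12 (limma adjusted p = 0.0970). It was not called with edgeR (adjusted p = 0.524), nor without WT replicate 1 or 3 (limma adjusted p = 0.484 and 0.291) or Smchd1-null replicate 1 or 2 (limma adjusted p = 0.996 and 1.00). The counts are of the host transcript, and the microRNAs printed above for it were not measured.

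Malat1 (ENSMUSG00000092341.3, chr19:5795690-5802672, minus strand), the speckle RNA, was the second. It had 329, 160.1, 261 and 254 CPM in WT and 126, 174 and 187 CPM in Smchd1-null samples. The genotypes overlapped, since WT replicate 2 was below Smchd1-null replicates 2 and 3. The log2 fold change was -0.72 ± 0.19 (SE, limma adjusted p = 0.233). WT replicate 2 and Smchd1-null replicate 1, the lowest values of their genotypes, are both of batch 1. Within batch 1 the difference was -0.11 and within batch 2 it was -0.46 on the log2 scale, and with the batch share in the fit the fold change was -0.37 ± 0.15 and no longer called (limma adjusted p = 0.561). Nor was it called without WT replicate 1, 3 or 4 (limma adjusted p = 0.595, 0.517 and 0.353) or Smchd1-null replicate 1 or 2 (limma adjusted p = 0.996 and 1.00). Neat1, its neighbour on chromosome 19, had 3.41 to 8.30 CPM in WT and 4.13 to 6.01 CPM in Smchd1-null.

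**Figure D5:**
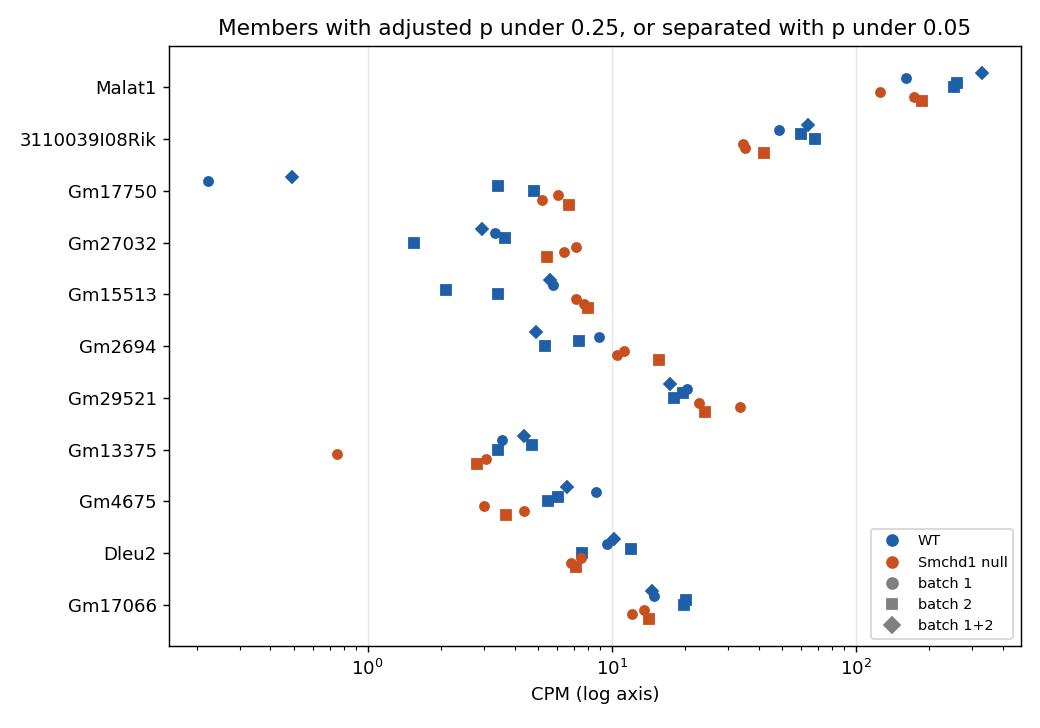
CPM in each sample, on a log axis, of the 2 members with an adjusted p under 0.25 (Malat1 and 3110039I08Rik) and of the 9 further members whose genotypes were apart at an unadjusted p under 0.05. In all but Malat1 the 4 WT values and the 3 Smchd1-null values do not overlap.

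For 9 further members the genotypes were apart at an unadjusted p under 0.05. Their adjusted p-values were 0.275 to 0.357 in the same limma fit, and none of them was called. Of all tested genes, 13.9% had such an unadjusted p and 5.53% had groups that did not overlap. The share of all genes that met both was not counted. Among the 9 members, 5 had higher values in Smchd1-null, and of these Gm17750 had the largest difference. It had 0.488, 0.222, 3.41 and 4.80 CPM in WT and 6.01, 5.19 and 6.71 CPM in Smchd1-null, a log2 fold change of 2.04 ± 0.59 (SE). The lowest WT values rest on 2 counts in replicate 1 and 1 count in replicate 2. It was called at 0.25 with the batch share in the limma fit (adjusted p = 0.130).

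Gm27032 had 1.54 to 3.67 CPM in WT and 5.41 to 7.13 CPM in Smchd1-null samples, and Gm15513, inside the gene body of Zfyve28 on the same strand, had 2.10 to 5.77 CPM and 7.13 to 8.01 CPM. Gm29521 had 17.3 to 20.4 CPM in WT and 22.9 to 33.7 CPM in Smchd1-null. Gm2694 had 4.88, 8.88, 7.34 and 5.32 CPM in WT and 11.3, 10.5 and 15.6 CPM in Smchd1-null, with a log2 fold change of 0.81 ± 0.26 (SE). It lies antisense over Cbln1, the gene of a secreted synapse organiser, which had 3.26 to 12.2 CPM in WT and 7.51 to 17.5 CPM in Smchd1-null samples (log2 fold change 0.64 ± 0.36, limma adjusted p = 0.414). Since strand may not have been used, reads of the stretch they share cannot be told apart.

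The other 4 of the 9 members had lower values in Smchd1-null. Gm4675, which starts 798 bases from Sox21, a transcription factor gene of neural progenitors, and overlaps its exons by 713 bases, had 6.59, 8.66, 6.03 and 5.49 CPM in WT and 3.00, 4.39 and 3.68 CPM in Smchd1-null. Sox21 itself had 67.6 to 71.3 CPM in WT and 57.1 to 61.9 CPM in Smchd1-null, also without overlap (log2 fold change -0.22 ± 0.12, limma adjusted p = 0.411). Strand may not have been used, so reads of the stretch shared by Gm4675 and Sox21 cannot be told apart. Gm13375 starts 173 bases from Arhgap21. It had 3.43 to 4.72 CPM in WT and 0.751 to 3.06 CPM in Smchd1-null samples, and Arhgap21 had 62.9 to 91.8 CPM and 59.4 to 70.8 CPM (log2 fold change -0.37 ± 0.14, limma adjusted p = 0.314). Dleu2, the miR-15a and miR-16 host, had 7.55 to 12.1 CPM in WT and 6.79 to 7.51 CPM in Smchd1-null. Gm17066, within Rbm26 on the same strand, had 14.7 to 20.2 CPM and 12.1 to 14.3 CPM.

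Of the members in the list named nuclear architecture, Malat1 alone was called. In this list, which also holds Norad, 6 members were tested and 1 was called, with a median log2 fold change of -0.24 beside 0.00 over all genes. Of all tested genes 1.08% were called. Malat1 was not called with the batch share in the limma fit (adjusted p = 0.561). Tug1, a lncRNA that starts 482 bases from Morc2a, had 50.8, 34.0, 52.2 and 30.2 CPM in WT and 31.9, 27.1 and 44.4 CPM in Smchd1-null, a fold change of -0.51 ± 0.20 (log2, SE) with overlapping genotypes. Norad had 74.2 to 97.8 CPM in WT and 71.2 to 95.2 CPM in Smchd1-null, and a transcript of Gm7292 covers 51.6% of it at 90% identity or more. Firre, an X-linked RNA that ties chromosomal regions together in the nucleus, had 21.5 to 34.2 CPM in WT and 21.6 to 24.2 CPM in Smchd1-null. Over the alternative fits, the median of this list ranged from -0.41 to -0.10.

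In the list of neural lncRNAs 7 members were tested and none was called in either direction, with a median log2 fold change of -0.12 that ranged from -0.38 to 0.03 over the alternative fits. Sox2ot, whose gene body holds Sox2, had 17.6 to 27.1 CPM in WT and 12.8 to 20.6 CPM in Smchd1-null (-0.51 ± 0.21, log2, SE, limma adjusted p = 0.324). Emx2os, divergent from the cortical transcription factor gene Emx2, had 4.15 to 4.97 CPM in WT and 2.40 to 3.75 CPM in Smchd1-null without overlap (limma adjusted p = 0.376). Oip5os1, with the miR-7 site shown above, had 89.9 to 117 CPM in WT and 81.7 to 103 CPM in Smchd1-null. Pantr2 had 7.60 to 15.6 CPM in WT and 9.18 to 11.7 CPM in Smchd1-null. Rmst, Dlx6os1, Dlx1as and Six3os1, known from the developing brain, stayed below the minimum with 3, 5, 13 and 93 counts in all, of which WT replicate 1 held 84 of those for Six3os1.

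X-linked lncRNAs were listed because SMCHD1 acts on the inactive X. Xist, the RNA that coats it, had 0 to 2 counts in each sample and was no member, and the Y-linked gene Ddx3y had 101 to 351 counts in all 7. The Y-linked genes Uty, Kdm5d and Eif2s3y likewise had counts in every sample. This is the pattern of male cells, in which no X is inactive, so the X-linked levels here do not measure silencing of the inactive X. Of Ftx and Jpx, which neighbour Xist, and Firre and 4933407K13Rik, which lie elsewhere on the X chromosome, none was called. Their median log2 fold change was -0.24, which was -0.07 with the batch share and -0.05 without WT replicate 1, and ranged from -0.35 to -0.02 over the alternative fits. Jpx, an activator of Xist, had 6.59, 5.55, 6.82 and 6.86 CPM in WT and 4.88, 4.66 and 2.38 CPM in Smchd1-null, with no overlap (-0.59 ± 0.29, log2, SE, limma adjusted p = 0.379). Ftx had 4.66 to 13.9 CPM in WT and 7.45 to 10.4 CPM in Smchd1-null. Over the 11 members on the X chromosome none was called, 4 fold changes were above 0 and 7 below, and the median was -0.17. With edgeR, DESeq2, voom without sample weights or without WT replicate 3, 1 of the 11 was above 0. The median was -0.10 with the batch share, -0.10 without Smchd1-null replicate 2, -0.30 without WT replicate 2 and -0.28 without Smchd1-null replicate 3, and ranged from -0.30 to -0.05 over the alternative fits. The only Y-linked member, Gm29650, had 1.03 to 6.89 CPM in WT and 4.76 to 9.76 CPM in Smchd1-null.

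In the list of growth and stress lncRNAs, 10 members were tested, none was called, and 5 fold changes lay on either side of 0. Pvt1, the neighbour of Myc, had 37.1 to 46.7 CPM in WT and 34.9 to 42.8 CPM in Smchd1-null. Zfas1 had 169 to 208 CPM in WT and 203 to 236 CPM in Smchd1-null samples. Epb41l4aos had 63.4 to 83.1 CPM in WT and 72.1 to 87.3 CPM in Smchd1-null. Trp53cor1, Lockd and Crnde had mean WT levels of 6.93, 9.51 and 3.13 CPM. Of the lncRNAs of the Hox clusters, 10 genes were examined and each had at most 3 counts in all samples together, so that none was a member. In the list of imprinted-region lncRNAs, A330076H08Rik and A230057D06Rik on chromosome 7 had 5.11 to 18.2 and 8.65 to 20.6 CPM in WT and 10.6 to 18.0 and 16.4 to 21.2 CPM in Smchd1-null, and neither was called. The only member of the list of genes that hold ribosomal RNA sequence, Gm26917, had 32.2 to 54.7 CPM in WT and 42.9 to 53.3 CPM in Smchd1-null.

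Hosts of small RNAs were described as groups. The 12 members with an annotated snoRNA or scaRNA gene inside them on the same strand had a median WT level of 42.0 CPM and a median log2 fold change of 0.18, with 8 above 0 and none called. 1110038B12Rik was at 0.37 ± 0.13 (log2, SE, limma adjusted p = 0.293). The median of the 12 was 0.04 with the batch share in the fit and -0.08 after removal of the trend with gene length. It ranged from -0.08 to 0.22 over the alternative fits. The 14 members with a microRNA gene inside them had a median WT level of 23.8 CPM and a median log2 fold change of -0.23, with 5 above 0, 9 below 0 and 1 called, which is 3110039I08Rik. Of all tested genes 6737 of 13305 were above 0 and 1.08% were called. The median of the microRNA hosts was -0.06 with the batch share and -0.11 after removal of the length trend. It was -0.43 without WT replicate 2, and ranged from -0.43 to -0.05 over the alternative fits. The snoRNA hosts had a median length of 1822 bases and the microRNA hosts of 5742 bases.

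With the members split by length into 3 classes of about equal size, the median log2 fold change was 0.02 for the shortest genes (168 to 1810 bases), -0.05 for the middle class (1811 to 3736 bases) and -0.10 for the longest (3773 to 23898 bases). This order was not kept in every fit. The medians were -0.04, -0.01 and -0.06 with the batch share, -0.05, -0.03 and -0.10 with edgeR, and -0.01, 0.01 and -0.11 without Smchd1-null replicate 1. Across the tested members the Spearman correlation of fold change and length was -0.15, and across all 13305 genes it was -0.38. Both are across genes, which share the same 7 libraries and are not independent. With a trend on length taken out of the log-CPM values sample by sample, the 3 medians became -0.19, -0.11 and -0.01, and no member was called at 0.25, against 0.601% of all genes. The log2 fold change was then -0.61 for Malat1 and -0.48 for 3110039I08Rik.

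Divergent members were set beside their partners to see whether both genes of a shared start region differed alike. In 100 pairs both genes were tested, with a median distance of 203 bases between the starts. The partner had the higher WT level in 85 pairs, with medians of 41.6 CPM for partners and 6.07 CPM for members. The levels of the 2 genes had a Spearman correlation of 0.04 and their fold changes one of 0.07, and the signs were the same in 51 of 100 pairs. In 31 antisense pairs, the signs were the same in 15 and the correlation of fold changes was 0.26. These correlations are across gene pairs in the same libraries. Of the partners, 2 of the divergent and 0 of the antisense ones were called at an adjusted p under 0.25 in the limma fit, against 1.08% of all tested genes. None of the 105 divergent members was called, and their median log2 fold change was -0.10.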

How the data were processed

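Polyadenylated RNA of 7 NSC cultures was sequenced as direct cDNA by nanopore. The deposited files hold whole-number counts per gene and the gene length. The authors base-called with Guppy, aligned to mm10 with minimap2 2.17 and counted primary alignments with featureCounts in long-read mode on Gencode, with the batches of WT replicate 1 summed. Use of strand is not stated, and overlapping or near-identical genes can exchange reads.

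Types and coordinates came from Gencode M21 (GRCm38), which matched 55154 of 55335 identifiers. filterByExpr kept 13305 genes. The study's design was followed, with TMM scaling, a genotype term alone in limma's voomWithQualityWeights and Benjamini-Hochberg adjustment over these genes, and log-CPM used a prior count of 2. All adjusted p-values not credited otherwise are from limma 3.58.1, with edgeR 4.0.16 and DESeq2 1.42.0 as alternatives under R 4.3.3. Sample-level quantities were compared by exact permutation. Copies were found with BLAST 2.17.0 (megablast). A count of 3 corresponds to 0.388 to 1.09 counts per M. The fits were tested on simulated data.

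Genes named were Smchd1, the 12 members of highest mean WT CPM, members with an adjusted p under 0.25, those with an unadjusted p under 0.05 and no overlap between genotypes, members of the lncRNA lists, and partner genes. The one-library members were chosen after their values were seen, as was Bc1. The members and lists were chosen with earlier results of these data known.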

Additional observations from a re-analysis of the deposited data

How the results depend on the processing

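The count of lncRNA members called at an adjusted p under 0.25 was 2 and stayed 2 with relative log expression factors, library size alone, or members of at least 200 counts, and without RefSeq coding or copied members, an alternative added after seeing the data. The count was also 2 with the batch share as a covariate (0.556% of all genes), but the members changed. They were then 3110039I08Rik, lower in Smchd1-null, and Gm17750, higher, in place of Malat1. The count was 0 with edgeR, with voom without sample weights, with all genes of at least 1 count and after removal of the length trend. In these fits 0.0601%, 0.0752%, 0.0597% and 0.601% of all genes were called. It was 1 with DESeq2 (0.241%), 4 of 217 with at least 10 counts in every sample (3.06%) and 5 with members of at least 50 counts. When replicates were left out in turn it was 0 to 53, where 0.00733% to 23.5% of all genes were called. At 0.05 the count was 0, and 0 to 3 with replicates left out. The 3 were without WT replicate 2, where 25 of 12891 genes were called. Without Smchd1-null replicate 3 it was 1, where 161 of 13395 genes were called. With the replicate number as a block the count was 4 at 0.25 (0.970% of all genes) and 1 at 0.05 (23 of 13305 genes). With the block and the length trend removed it was 4 (1.32%) and 2 (48 of 13305 genes). In both block fits the 4 were 3110039I08Rik, Gm10825, Gm17750 and Gm26581, with 3 of them higher in Smchd1-null. Gm26581 and Gm10825 share sequence and were both highest in Smchd1-null replicate 2. The replicate numbers were not taken to pair the samples, because the labels do not say that they do. The deviations of samples of the same number correlated at -0.04, 0.36 and 0.09. The 0.36 of replicates 2 was the highest of all pairs of a WT and a Smchd1-null sample, while WT replicate 1 correlated best with Smchd1-null replicate 3 (0.24). Whether the block result reflects pairing was not tested. The median log2 fold change of the tested members (-0.04) was -0.11 after removal of the length trend. The difference in the share of counts (0.11 percentage points) was 0.058 to 0.167 with replicates left out in turn and reversed to -0.025 without Gm10076 and to -0.016 without RefSeq coding, pseudogene and copied members. The median WT level (6.52 CPM) was 3.82 CPM with members of at least 50 counts, 14.05 CPM with at least 200, and 6.08 CPM without RefSeq coding, pseudogene and copied members, since these alternatives change which genes are members. For the other values above, the cause was not tested. No fold change of the 11 members named for their change reversed in any fit. All but Malat1 had groups without overlap, and most were chosen for that in these same data. A change of sign was therefore unlikely from the start, and its absence is no support. 3110039I08Rik passed 0.25 in 11 of 19 fits and Malat1 in 6 of 19. Depth limits the members of few counts, since 3 counts are worth 0.388 to 1.09 counts per M.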
